A study of Mus musculus with 48 samples.

Results

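The major urinary protein (Mup) family was followed gene by gene through 48 mouse RNA sequencing libraries. Its members were taken as every identifier of the count tables whose mouse symbol is Mup or Mup-ps followed by a number. This gave 49 of 56748 identifiers, of which 22 are annotated as protein-coding and 27 as pseudogenes. Of the 49, 48 lie in a single cluster on chromosome 4 (chr4:59956804-62150863, GRCm38, GENCODE M21), which spans 2.19 megabases, and Mup-ps22 lies on chromosome 11.

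The libraries came from liver, epididymal white adipose tissue (eWAT) and brown adipose tissue (BAT) of male littermates. The mice were hepAGT+/+ (here WT) or hepAGT-/- (here KO), the latter with Agt, which encodes the angiotensin precursor angiotensinogen, deleted in hepatocytes. Housing was at thermoneutrality (TN, 30 °C), which spares a mouse the cost of staying warm, or at room temperature (RT, 20 to 22 °C). All groups, WT at RT included, ate the Western diet TD.88137 (21% of it milk fat and 0.2% cholesterol) over 12 weeks under 14 h of light and 10 h of dark, so no group had ordinary chow. Each of the 12 groups of tissue, genotype and housing held 4 libraries. The promoter that drove the deletion, the strain and the age of the mice are not given in the sources used here.

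Mup proteins are small lipocalins, barrel-shaped carriers that bind volatile odorants. Hepatocytes of adult male mice secrete them into blood in large amounts, and they pass into urine, where they release bound pheromones slowly and carry information on individual and sex. In liver their transcription is known to depend on pulsatile growth hormone acting through STAT5b, with androgen, thyroid hormone and glucocorticoid contributing. Mup20, also called darcin, is a male pheromone in its own right, and Mup4 and Mup5 are known mainly from secretory glands outside the liver.

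The members are close copies of each other, which limits what a count per gene can mean. Over the 231 pairs of the 22 coding genes, coding sequence identity ran from 85.6% to 100%, with a median of 98.5%. Of these genes, 16 were more than 97% identical to each other in all 120 pairs and are called near-identical here. The other 6 (Mup3, Mup4, Mup5, Mup6, Mup20 and Mup21) are called divergent. Mup9 and Mup18 were identical over all 540 aligned coding bases, Mup18 having 3 bases more, whereas the closest relative of Mup3, Mup21, shared 96.3%. In position, 21 of the 22 coding genes are on the minus strand, whereas of the 26 pseudogenes on chromosome 4, 20 are on the plus strand.

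The share of a member's 100-base exon windows found in no other annotated transcript is a rough guide to how far reads can be assigned to it. That share was 97.8% in Mup3, 95.5% in Mup21, 75.8% in Mup-ps13, 61.2% in Mup20 and 40.6% in Mup17. It was 28.1% in Mup9, 23.9% in Mup7, 22.5% in Mup12 and 2.66% in Mup15, and 0% in Mup19 and Mup22. Mup19 and Mup22 still held 438299 and 214028 counts over the liver libraries, so the share does not settle which reads were counted. How reads that match several members were counted is not given in the sources used here, so levels of single near-identical genes are uncertain, and sums over the family are given beside them.

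Promoters of 4 members are shown because Mup17 and Mup3 were the most abundant members in liver, Mup9 gave the largest called change within liver, and Mup21 is the closest coding relative of Mup3. Each sequence is the 150 bases before the gene's RefSeq start on the minus strand of GRCm38.p6, written 5′ to 3′, and capitals mark the TATA-type motif TATATAA. The windows are chr4:61595833-61595982 for Mup17, chr4:60421953-60422102 for Mup9, chr4:62087318-62087467 for Mup3 and chr4:62150842-62150991 for Mup21.
Mup17: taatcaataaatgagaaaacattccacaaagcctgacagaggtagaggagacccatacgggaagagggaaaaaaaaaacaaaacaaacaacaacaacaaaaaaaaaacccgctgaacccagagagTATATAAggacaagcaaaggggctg
Mup9: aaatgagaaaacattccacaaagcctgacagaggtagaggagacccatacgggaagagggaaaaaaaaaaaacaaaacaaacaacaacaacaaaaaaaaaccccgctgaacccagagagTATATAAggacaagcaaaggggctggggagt
Mup3: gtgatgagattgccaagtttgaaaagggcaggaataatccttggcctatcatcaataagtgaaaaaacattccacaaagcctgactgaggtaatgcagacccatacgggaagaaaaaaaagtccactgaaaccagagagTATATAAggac
Mup21: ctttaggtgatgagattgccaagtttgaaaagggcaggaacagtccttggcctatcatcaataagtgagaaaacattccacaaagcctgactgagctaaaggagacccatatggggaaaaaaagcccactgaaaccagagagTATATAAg
The first base of the motif lay 25 bases before the RefSeq start in Mup17, 31 in Mup9, 11 in Mup3 and 8 in Mup21. These distances depend on the annotated start. In GENCODE M21, Mup17, Mup3 and Mup21 begin further upstream, at 61595871, 62087342 and 62150863, so that the motif lies inside them. Mup9 begins at the same base in both. RefSeq gave a promoter window for 14 of the 22 coding members. These windows reach further upstream than the 150 bases shown and also past the start. Searched on both strands, TATATAA was in 13 of these 14, against 3.24% of all 32851 windows of the same length. A Mup gene counted if any of its windows held the motif, whereas the share of all windows counts each window singly. The STAT5-type motif TTCNNNGAA was in 0 of the 14, against 8.30% of all windows. A match here is a description of letters, and a lack of one says only that these letters are not in this window.

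Total counts per library ran from 23.7 to 36.5 M (megacounts) in liver, 25.3 to 39.4 M in BAT and 28.7 to 43.7 M in eWAT. Levels are CPM, the counts per megacount of a library after TMM scaling (edgeR's trimmed mean of log ratios), shown as mean ± SD with n = 4 per group unless said otherwise. The targeted gene, Agt, was at 368 ± 75.5 CPM in liver of WT at RT and 167 ± 26.7 CPM in KO at RT, and at 410 ± 86.5 CPM and 167 ± 33.8 CPM in the same order at TN, with no overlap between genotypes. The labels call the libraries biological replicates without naming the animals, and p-values judge group differences against the spread between these libraries. In bulk tissue, fewer cells of a type and less RNA per cell cannot be told apart. The summed level of 9 hepatocyte markers in liver ran from 64500 to 89813 CPM in WT at RT, 79790 to 89140 CPM in KO at RT, 72173 to 109170 CPM in WT at TN and 79738 to 94637 CPM in KO at TN.

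In liver the family took 6.04 ± 2.55% of all counts in WT at RT, 4.30 ± 0.744% in KO at RT, 1.76 ± 0.787% in WT at TN and 2.52 ± 0.456% in KO at TN. Of the 49 members, 42 had counts in at least 1 of the 16 liver libraries. The 7 at 0 in liver were Mup4, Mup5 and 5 pseudogenes, and 6 members had no counts in any of the 48 libraries. A filter on low counts kept 34 members for testing in liver, made up of all 16 near-identical genes, 4 divergent genes and 14 pseudogenes.

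Compared per kilobase of exon, Mup17 had the highest mean liver level, at 10460 CPM per kb over the 16 libraries, followed by Mup3 at 7309 CPM per kb and Mup12 at 5224 CPM per kb. Mup7 was at 4054 CPM per kb, Mup20 at 2178 CPM per kb and Mup15 at 1729 CPM per kb. The order of Mup17, Mup3, Mup12 and Mup7 is not settled by these means, since their ranges over libraries overlapped. The members differed in how much they varied. Mup3 ran from 4312 to 11300 CPM, a highest-to-lowest ratio of 2.62, and Mup20 had a ratio of 3.39. Mup17 ran from 166 to 30923 CPM, a ratio of 186, and Mup7 had a ratio of 103. The widest spread was in Mup8, at 0.529 to 1457 CPM, a ratio of 2753, and Mup19 had a ratio of 685. In KO at RT, for example, Mup19 was at 172, 48.6, 50.6 and 2092 CPM in its 4 libraries, which is a wide spread within a group. Among pseudogenes Mup-ps13 varied least of those described here, from 8.78 to 31.1 CPM, a ratio of 3.54.

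**Figure D1:**
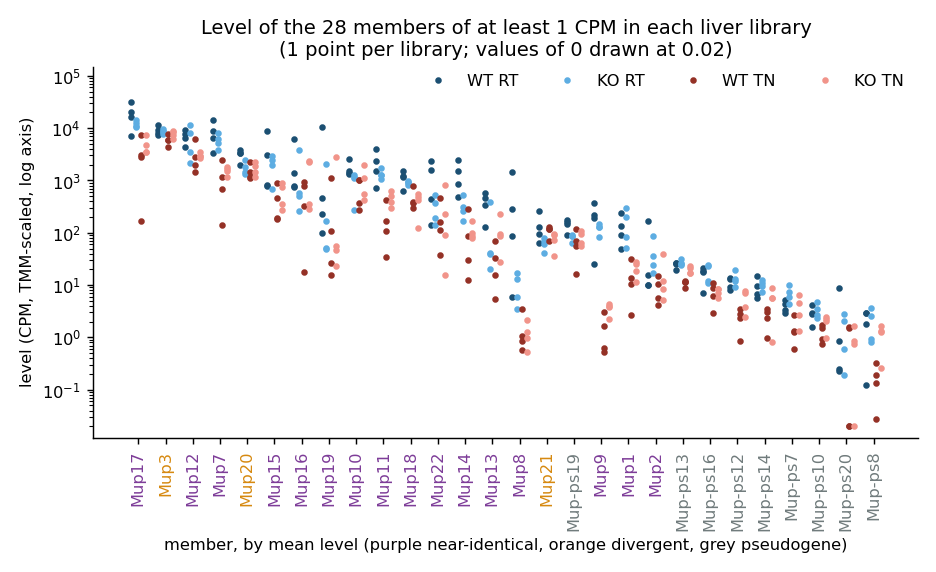
Level in CPM (TMM-scaled, log axis, values of 0 drawn at 0.02) of the 28 members with a mean of at least 1 CPM, 1 point per liver library, coloured by group and ordered by mean level. Mup3 stays between 4312 and 11300 CPM, whereas Mup8 and Mup9 drop from up to 1457 and 372 CPM to at most 3.44 and 4.30 CPM in the TN libraries.

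The first comparison asked how housing temperature related to the family in WT liver. The summed level of the 49 members was 63906, 57677, 31114 and 100290 CPM in WT at RT (libraries 11, 12, 15 and 18) and 30813, 18136, 8865 and 14827 CPM in WT at TN (libraries 1, 6, 7 and 24). The groups did not overlap, although the lowest RT library and the highest TN library nearly met, and the mean at RT (63247 ± 28497 CPM) was 3.48 times that at TN (18160 ± 9266 CPM). The near-identical genes carried most of this difference. Their sum was 4.83 times as high at RT, at 50828 against 10524 CPM, with no overlap. The sum of the divergent genes was 1.62 times as high at RT, at 12199 against 7543 CPM, also with no overlap, and that of the pseudogenes was 2.35 times as high with overlapping groups. Albumin, another abundant secreted product of hepatocytes, was at 46585 CPM at RT and 58077 CPM at TN with overlapping groups. Of 10 marker lists, 1 did not overlap between RT and TN in WT, that of the submandibular and lacrimal glands, which rested on Amy1 (306 to 391 CPM at RT, 235 to 279 CPM at TN) with its other 5 markers at 0, and whose part was not tested. The ratio of summed Mup to albumin was 1.39, 1.14, 0.594 and 2.67 in the RT libraries and 0.433, 0.330, 0.144 and 0.331 in the TN libraries, without overlap.

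**Figure D2:**
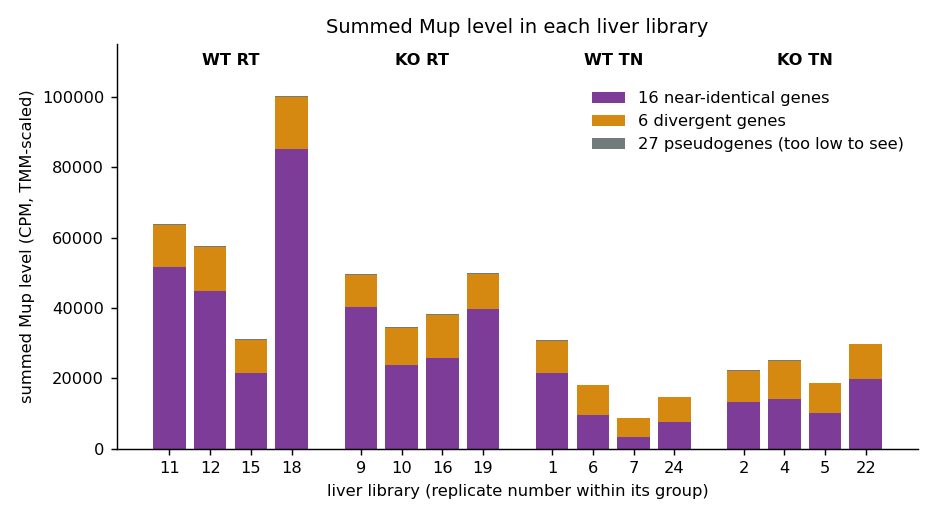
Summed Mup level in CPM (TMM-scaled, axis from 0) in each of the 16 liver libraries, stacked by class, with replicate numbers on the x axis. WT RT libraries reach from 31114 to 100290 CPM and all 8 TN libraries lie at or under 30813 CPM; the 27 pseudogenes are too low to be seen.

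Gene by gene, 33 of the 34 tested members had a lower mean at TN in WT, against 49.1% of all 17594 genes tested, and their median log2 change was -2.33, against 0.01 over all genes. By class the median was -2.92 for the near-identical genes, -0.83 for the divergent genes and -1.57 for the pseudogenes. At an adjusted p under 0.05 over all genes, edgeR's quasi-likelihood test called 2 members lower, Mup9 and Mup-ps13, where 0.0227% of all genes (4 genes) were called lower. At an unadjusted p under 0.05, 27 members were lower and 0 higher, against 3.31% of all genes lower. In 13 members the 4 TN libraries lay wholly below the 4 RT libraries, against 1.73% of all genes. DESeq2 called 14 members lower, where it called 0.239% of all genes lower. The edgeR count was 4 without WT RT library 15, the RT library with the lowest Mup sum, and 1 without WT TN library 6.

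Mup9 (ENSMUSG00000078686, chr4:60418046-60421952, minus strand), a near-identical coding gene, fell furthest among the called members. It was at 223, 189.9, 25.7 and 372 CPM in WT at RT and at 2.99, 0.618, 0.524 and 1.68 CPM in WT at TN, the latter from 80, 18, 19 and 56 counts. Every TN library was below every RT library, and RT library 15 was well below the other RT libraries. The log2 change was -7.15 (SE 0.83, adjusted p 0.00842, edgeR). Its call was lost without WT TN library 6 (adjusted p 0.0603) and in a fit of only the 8 libraries compared (adjusted p 0.221), and was kept in 21 of 23 settings (range 1.04e-23 to 0.221).

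Mup-ps13 (ENSMUSG00000095532, chr4:61534230-61536973, plus strand), an unprocessed pseudogene with no protein product, was at 26.0, 25.8, 19.3 and 25.9 CPM in WT at RT. At TN it was at 11.3, 12.2, 8.78 and 11.3 CPM, so both groups were tight and did not overlap. It fell by 1.15 on the log2 scale (SE 0.16, adjusted p 0.00266, edgeR) and was called in 23 of 23 settings (range 8.89e-08 to 0.0331). Its percentage of unique windows was 75.8, against 28.1 in Mup9. Where its counted reads fell was not examined, so how far its count rests on shared sequence is not known.

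The most abundant members were not called by edgeR in WT. Mup17 was at 19903, 16022, 7098 and 30923 CPM at RT and 7382, 2824, 166 and 3116 CPM at TN. Its groups overlapped through RT library 15 and TN library 1, with a log2 change of -2.45 (SE 0.78, adjusted p 0.436). Mup3 was at 7989, 9207, 7279 and 11300 CPM at RT and 7619, 5968, 4312 and 5876 CPM at TN. Its groups also overlapped, and its log2 change of -0.59 (SE 0.17, adjusted p 0.314) was the smaller of the 2. Mup12 was at 7876, 9093, 4267 and 6430 CPM at RT and 6134, 2846, 1451 and 1990 CPM at TN, with a log2 change of -1.16 (SE 0.52, adjusted p 0.676) and overlapping groups. Mup7 was at 6487, 9000, 3284 and 14185 CPM at RT and 2514, 692, 138 and 1186 CPM at TN. All TN libraries of Mup7 lay below all RT libraries, with a log2 change of -2.86 (SE 0.70, adjusted p 0.281). Mup20, the pheromone darcin, was at 3857, 3293, 1968 and 3351 CPM at RT and 1435, 2241, 1147 and 1138 CPM at TN. RT library 15 fell below TN library 6 in Mup20, whose log2 change was -1.06 (SE 0.27, adjusted p 0.266). Mup15 was at 3002, 811, 781 and 8975 CPM at RT and 894, 458, 195 and 184 CPM at TN, with overlapping groups and a log2 change of -2.97 (SE 0.88, adjusted p 0.409). DESeq2 called Mup7, Mup15, Mup17 and Mup20 lower, and called neither Mup3 nor Mup12.

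Of the remaining near-identical genes, Mup11 went from 2119 ± 1376 CPM at RT to 183 ± 167 CPM at TN without overlap (log2 change -3.54, SE 0.70, adjusted p 0.159). Mup14 was at 1335 ± 853 CPM and 103 ± 123 CPM, Mup13 at 378 ± 194 CPM and 30.6 ± 27.7 CPM, and Mup1 at 126 ± 80.1 CPM and 14.7 ± 12.5 CPM, each without overlap. Mup8 was at 5.86, 85.2, 281 and 1457 CPM at RT and 3.44, 1.06, 0.580 and 0.868 CPM at TN. Its RT libraries spanned a far wider range than those of any called member, and its log2 change of -8.30 (SE 1.53) had an adjusted p of 0.128. Mup10, at 1699 ± 562 CPM and 664 ± 402 CPM, did not overlap either, whereas Mup18, at 1133 ± 356 CPM and 459 ± 215 CPM, did. Mup21, a divergent gene, was at 94.7, 132, 64.6 and 255 CPM at RT and 132, 116, 70.7 and 117 CPM at TN, with a log2 change of -0.33 (SE 0.41, adjusted p 0.933). Among pseudogenes, Mup-ps12 was at 11.0 ± 2.81 CPM and 2.40 ± 1.15 CPM without overlap (log2 change -2.20, SE 0.40, adjusted p 0.0549) and Mup-ps19 at 141 ± 35.6 CPM and 64.6 ± 41.3 CPM with overlap.

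In a further set of WT members the RT mean rested on few libraries. Mup16 ran from 756 to 6250 CPM at RT and from 18.1 to 918 CPM at TN, and Mup19 from 98.8 to 10730 CPM and from 15.7 to 1115 CPM. Mup22 ran from 142 to 2308 CPM at RT and from 37.3 to 459.6 CPM at TN, and Mup2 from 9.91 to 169.5 CPM and from 4.22 to 15.1 CPM. All 4 overlapped between RT and TN, and their adjusted p values ranged from 0.624 for Mup2 to 0.855 for Mup19. The remaining pseudogenes were at low levels. Mup-ps16 was at 16.3 ± 6.34 CPM at RT and 7.23 ± 3.52 CPM at TN, Mup-ps14 at 9.17 ± 4.04 CPM and 2.46 ± 1.09 CPM, and Mup-ps7 at 3.97 ± 1.08 CPM and 1.48 ± 0.867 CPM. Mup-ps14 and Mup-ps7 did not overlap, whereas Mup-ps16 did. Mup-ps10 was at 2.88 ± 1.04 CPM and 1.23 ± 0.468 CPM, and Mup-ps8 at 1.95 ± 1.34 CPM and 0.170 ± 0.125 CPM, both with overlap. Mup-ps20 was at 8.896 CPM in RT library 18 and at most 1.61 CPM in the other WT libraries.

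The same housing comparison was made in KO liver, within the fit of all 16 liver libraries, so its scaling and estimate of spread also draw on the WT libraries. The summed level was 49575, 34606, 38176 and 49814 CPM at RT (libraries 9, 10, 16 and 19) and 22279, 25086, 18752 and 29887 CPM at TN (libraries 2, 4, 5 and 22). The groups did not overlap, and the RT mean of 43043 ± 7818 CPM was 1.79 times the TN mean of 24001 ± 4703 CPM. The near-identical sum was 2.25 times as high at RT, at 32416 against 14381 CPM, without overlap, and the divergent sum 1.10 times, at 10460 against 9492 CPM, with overlap. In the same libraries the 5 stellate cell and fibroblast markers summed to 106 to 157 CPM at RT and 166 to 311 CPM at TN, and the 6 B and T cell markers to 2.78 to 5.66 CPM and 6.05 to 15.9 CPM, both without overlap. Their part in the Mup difference was not tested. The ratio of summed Mup to albumin was 0.985, 0.684, 0.769 and 1.07 in the RT libraries and 0.386, 0.479, 0.297 and 0.646 in the TN libraries, again without overlap.

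In KO, 29 of the 34 members had a lower mean at TN (49.4% of all genes), with a median log2 change of -1.01 against 0.01 over all genes. By class the median was -1.35 for near-identical genes, -0.11 for divergent genes and -0.87 for pseudogenes. The edgeR test called 1 member lower, Mup9, where 0.0114% of all genes were called lower. At an unadjusted p under 0.05, 11 members were lower (4.1% of all genes) and 0 higher. DESeq2 called 5 lower, namely Mup1, Mup7, Mup9, Mup-ps12 and Mup-ps16 (0.284% of all genes). A fit of only the 8 libraries called 4, for which no share of all genes is given here. Groups did not overlap in 12 members, all lower at TN (2.9% of all genes). Of these 12 and the 13 of the WT comparison, 8 were shared, which were Mup1, Mup7, Mup8, Mup9, Mup11, Mup14, Mup-ps12 and Mup-ps13. The share of all genes without overlap in both genotypes is not given here, and these members may share reads.

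Mup9 in KO was at 128, 82.3, 131 and 144.5 CPM at RT and at 4.30, 4.01, 2.28 and 3.86 CPM at TN. Both groups were tighter than in WT and lay far apart, with a log2 change of -5.07 (SE 0.74, adjusted p 0.0310, edgeR). The call was kept in 18 of 23 settings (range 6.97e-11 to 0.144). It was lost without KO RT library 9 (0.111), 16 (0.0552) or 19 (0.0671) and without KO TN library 4 (0.144) or 5 (0.130), while the log2 change stayed between -5.13 and -4.90 in these settings.

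None of the 6 most abundant members was called by edgeR in KO in the fit of 16 libraries. Mup17 was at 12417, 10893, 10711 and 14380 CPM at RT and 4758, 3504, 3575 and 7466 CPM at TN. The groups were apart, with a log2 change of -1.33 (SE 0.75, adjusted p 0.586). Mup3 was at 7783, 8669, 9534 and 8499 CPM at RT and 7325, 8458, 6322 and 8753 CPM at TN, and its overlapping groups differed by -0.16 (SE 0.17, adjusted p 0.834) on the log2 scale. Mup7 was at 8051, 6280, 3830 and 5236 CPM at RT and 1539, 1785, 1145 and 1659 CPM at TN. Its groups were apart, with a log2 change of -1.93 (SE 0.67, adjusted p 0.306); DESeq2 (0.0387) and the fit of only 8 libraries (0.00864) called it. Mup12 was at 11724, 2167, 3517 and 7915 CPM at RT and 2658, 3457, 2942 and 2932 CPM at TN, overlapping through RT library 10. Mup15 was at 2902, 686, 2482 and 1944 CPM at RT and 738, 357, 276 and 909 CPM at TN, overlapping through the same library. Mup20 was at 1441, 1827, 2475 and 1358 CPM at RT and 1455, 2278, 1907 and 1173 CPM at TN, and its log2 change of -0.06 (adjusted p 0.977) took the opposite sign, 0.02, with plain library totals. Mup-ps13 was at 25.1, 26.5, 31.1 and 24.3 CPM at RT and 17.0, 21.5, 17.2 and 23.2 CPM at TN. Its groups did not overlap but came close, and its log2 change of -0.44 (SE 0.16) had an adjusted p of 0.274.

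Among the other KO members, Mup1 was at 159 ± 115 CPM at RT and 20.5 ± 7.25 CPM at TN (-2.95 on the log2 scale, SE 0.77, adjusted p 0.149) and Mup11 at 1330 ± 275 CPM and 455.03 ± 143 CPM (-1.55, SE 0.65, adjusted p 0.415). Both were without overlap, as were Mup14, at 315 ± 154 CPM and 108 ± 38.7 CPM, and Mup18, at 903.3 ± 71.2 CPM and 395 ± 189 CPM. Several members that had been lower at TN in WT libraries showed similar KO means at both temperatures. Mup10 was at 958 ± 460 CPM at RT and 1016 ± 693 CPM at TN, Mup13 at 123 ± 179 CPM and 109 ± 84.3 CPM, and Mup22 at 307 ± 173 CPM and 293 ± 373 CPM. Their SDs were large beside these means: the SE of the KO log2 change was 0.60 for Mup10, 1.00 for Mup13 and 1.11 for Mup22. Mup16 (1274 against 1319 CPM) and Mup19 (591 against 721 CPM) had overlapping groups as well. Of the pseudogenes, Mup-ps12 was at 13.5 ± 4.25 CPM and 5.18 ± 2.49 CPM and Mup-ps16 at 17.5 ± 7.14 CPM and 7.47 ± 1.35 CPM, both without overlap, with adjusted p values of 0.137 and 0.230 (edgeR). Mup-ps19, at 81.2 ± 11.5 CPM and 81.4 ± 26.1 CPM, overlapped.

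**Figure D3:**
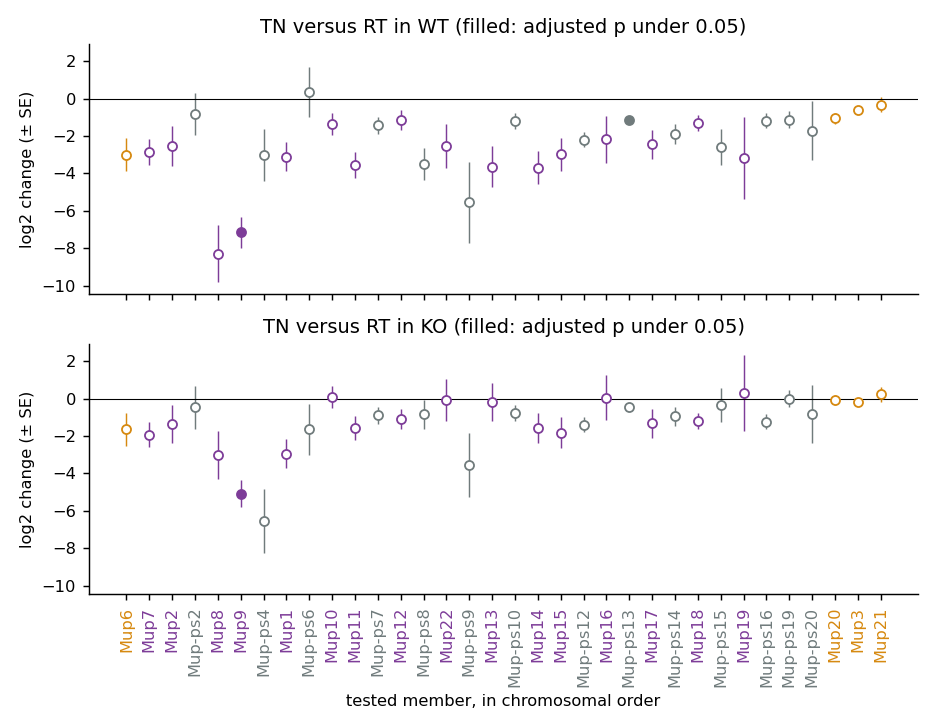
Log2 change at TN against RT (± SE) of the 34 tested members in chromosomal order, in WT (top) and KO (bottom), with filled points for an edgeR adjusted p under 0.05. In WT 33 of 34 points lie below 0, with Mup9 (-7.15) and Mup-ps13 (-1.15) filled, and in KO 29 of 34 lie below 0, with Mup9 (-5.07) filled.

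Whether the housing difference itself differed by genotype was tested by the interaction of genotype and housing. No member was called (0 of 34, edgeR and DESeq2, against 0.0% of all genes), and 7 had an unadjusted p under 0.05, all in the direction of a smaller decrease in KO (4.19% of all genes). The interaction term was positive in 31 of 34 members, with a median of 1.07 on the log2 scale against 0.01 over all genes. For Mup-ps13 it was 0.71 (SE 0.22, unadjusted p 0.00414, adjusted p 0.50) and for Mup9 2.08 (SE 0.95, adjusted p 0.678). For Mup17 it was 1.13 (adjusted p 0.884) and for Mup20 1.01 (adjusted p 0.577). The housing difference was therefore not shown to differ between genotypes in any member.

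The composition of the family moved with housing. The leading member was Mup17 in 7 of the 16 liver libraries and Mup3 in 9. Mup3 led in all 8 TN libraries and in WT RT library 15. Mup3 took 11.3% to 25.0% of the family's CPM in RT libraries and 24.7% to 48.6% in TN libraries. Mup17 took 14.0% to 31.5% in all libraries other than WT TN library 7, where it took 1.87%. That library also had the lowest family sum, and near-identical genes made up 36.8% of it. Elsewhere the near-identical share ranged up to 84.9%, in WT RT library 18, which had the highest sum. These shares come from the same counts as the sum.

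**Figure D4:**
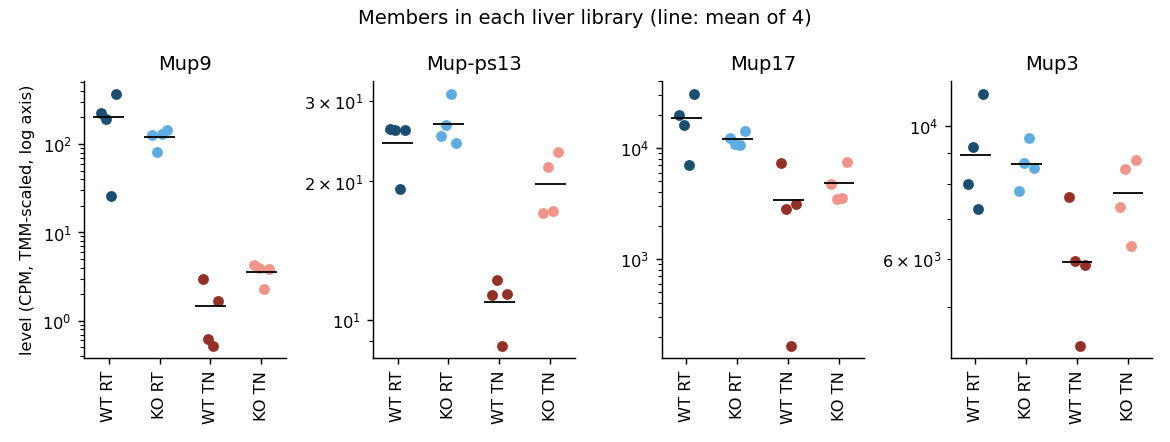
Level in CPM (TMM-scaled, log axis, different range in each panel) of Mup9, Mup-ps13, Mup17 and Mup3 in each liver library, with lines at the mean of 4. Mup9 falls from 203 to 1.45 CPM in WT and from 121 to 3.61 CPM in KO, and Mup-ps13 at TN lies at 8.78 to 12.2 CPM in WT and 17.0 to 23.2 CPM in KO.

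The comparison of genotypes asked whether loss of hepatocyte Agt went with a change in the family at each temperature. At RT the summed level was 1.47 times as high in WT (63247 ± 28497 CPM) as in KO (43043 ± 7818 CPM) with overlapping groups. This log2 difference of -0.56 was -0.24 without WT RT library 18 and -0.78 without WT RT library 15. The edgeR test called 0 of 34 members, where 0.0853% of all genes were called. At an unadjusted p under 0.05, 4 members were lower in KO (4.95% of all genes), and DESeq2 called 1 lower, Mup8 (0.693% of all genes). The 4 were Mup8, Mup14, Mup20 and Mup21. Mup8 in KO was at 3.53, 17.4, 5.89 and 12.8 CPM, within reach of the lowest WT library at 5.86 CPM (log2 change -5.53, SE 1.32, adjusted p 0.149, edgeR). For Mup20 the log2 change was -0.81 (SE 0.27, adjusted p 0.282) and for Mup21 -1.12 (SE 0.41, adjusted p 0.352), Mup21 in KO being at 40.5, 70.6, 79.9 and 60.1 CPM. Mup14, at 1335 ± 853 CPM in WT libraries and 315 ± 154 CPM in KO libraries, differed by -2.08 (SE 0.82, adjusted p 0.391). The KO libraries lay wholly below the WT libraries in 2 members, Mup10 and Mup-ps19 (2.83% of all genes). A lower mean in KO was seen in 23 of 34 members (48.2% of all genes), and their median log2 change was -0.64, against 0.02 over all genes. Of the 10 marker lists, that of the epididymis did not overlap between genotypes at RT, at 0 to 0.230 CPM in WT and 0.421 to 0.968 CPM in KO, and its part was not tested.

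At TN the summed level was 1.32 times as high in KO (24001 ± 4703 CPM) as in WT (18160 ± 9266 CPM), with overlapping groups. This log2 difference of 0.40 ranged from 0.18 without WT TN library 7 to 0.78 without WT TN library 1. The edgeR test called 1 of 34 members higher, Mup-ps13, where 1.34% of all genes were called higher, and 5 at an unadjusted p under 0.05 (8.68% of all genes). The count was 2 without WT RT library 15, 3 without KO TN library 5, and 4 with DESeq2 (3.06% of all genes called higher), all 4 being pseudogenes (Mup-ps7, Mup-ps8, Mup-ps12 and Mup-ps13). Mup-ps13 rose from 10.9 ± 1.49 CPM in WT to 19.7 ± 3.07 CPM in KO, as the 1 member whose KO libraries all lay above the WT libraries (6.23% of all genes; log2 change 0.85, SE 0.16, adjusted p 0.00626). It was called in 23 of 23 settings (range 0.000116 to 0.0293). This comparison shares the 4 WT libraries at TN with the housing comparison in WT, so the 2 calls of Mup-ps13 are not independent. Mup3 had the largest share of unique windows among the 6 most abundant members. Its WT libraries were at 5944 ± 1351 CPM and its KO libraries at 7715 ± 1114 CPM, a log2 difference of 0.38 (SE 0.17, adjusted p 0.239, edgeR). The median over the 34 members was 0.50, against 0.05 over all genes. Among 10 marker lists, 2 separated the genotypes at TN. The 6 B and T cell markers summed to 2.16 to 5.73 CPM in WT and 6.05 to 15.9 CPM in KO. The 5 brown adipocyte markers, with Ucp1 at 0 in both groups, summed to 95.6 to 110.03 CPM in WT and 42.8 to 73.5 CPM in KO. Of these 5, Elovl3 is also on the list of male-biased liver genes used below, so their sum need not mark brown adipocytes. The 6 Kupffer cell and macrophage markers overlapped, at 160 to 325 CPM in WT and 234 to 614 CPM in KO. The part of these marker lists, and of the cell types they are named for, in the differences was not tested.

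Genes known to act upstream of the family, or to follow the same hormonal control, were taken from lists. Of 14 growth hormone signalling genes (such as Ghr, Jak2, Stat5b and Socs2), edgeR called 0 in any liver comparison. In WT, 0 of the 14 had an unadjusted p under 0.05 for housing and the median log2 change was 0.01. In KO, 2 were higher and 1 lower unadjusted (4.1% of all genes lower), and DESeq2 called 1 higher. Between genotypes, 2 were higher in KO at RT and 3 at TN (8.68% of all genes at TN), with 0 lower, all unadjusted. The medians were 0.03 at RT and -0.01 at TN, and DESeq2 called 0 at both. No share of all genes is given here for the other counts of higher genes in this list. Of 16 other male-biased liver genes under growth hormone control, 15 were tested and edgeR called 0 in any comparison. Between genotypes at RT, 4 had lower KO levels before adjustment (p under 0.05, 4.95% of all genes) and DESeq2 called 2 lower (0.693% of all genes). At TN, 1 was higher in KO before adjustment (8.68% of all genes) and 3 were lower, and DESeq2 called 0. No share of all genes is given here for the 3. The median at TN was -0.01 against 0.05 over all genes, whereas that of the 34 Mup members was 0.50. For housing in WT all 15 had a lower mean at TN (49.1% of all genes), 9 of them at an unadjusted p under 0.05 (3.31% of all genes). The median was -0.70, and DESeq2 called 5 lower (0.239% of all genes). For housing in KO, 12 of 15 had a lower mean (49.4% of all genes), 5 at an unadjusted p under 0.05 (4.1% of all genes). The median was -0.42, and DESeq2 called 4 lower (0.284% of all genes). Selenbp2, a male-biased selenium-binding protein gene, was at 254 ± 196 CPM in WT at RT and 39.8 ± 29.5 CPM in WT at TN (log2 change -2.68, adjusted p 0.304).

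Of 20 female-biased liver genes, 15 were tested and 0 called by edgeR or DESeq2 in any comparison. For housing in WT, 3 had a higher and 1 a lower level before adjustment (p under 0.05), where 3.31% of all genes were lower. The median was 0.52. In KO 1 was higher and 2 lower, where 4.1% of all genes were lower, with a median of 0.22. No share of all genes is given here for the higher genes in either genotype. Those counts are therefore not read as a result about this list. Of 19 transcription factors and hormone receptors linked to Mup transcription, edgeR called 1 lower in KO at TN (1.85% of all genes). DESeq2 called 2 lower there. At an unadjusted p under 0.05, 5 were lower and 0 higher, with a median of -0.26 against 0.05 over all genes. No share of all genes is given here for the 2 and the 5, so they are not read as a result about this list. In the other 4 liver comparisons edgeR and DESeq2 called 0. For housing, 3 were higher and 0 lower (unadjusted) at TN in WT, with a median of 0.04 against 0.01 over all genes. No share of all genes is given here for the 3. In KO 0 were higher and 2 lower at TN (4.1% of all genes lower), with a median of -0.13.

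The 5 tested genes whose log2 level followed the summed Mup level most closely over the 16 liver libraries were Sult5a1 (Pearson r 0.875), Selenbp2 (0.855), Dio1 (0.850), Ufm1 (0.835) and Ugt2b35 (0.823). For Mup9 they were Sult5a1 (0.901), Cela1 (0.866), Ugt2b35 (0.837), Pdilt (0.814) and Serpine2 (0.81). Sult5a1, a sulfotransferase gene, was at 14.3 CPM in WT at RT, 12.2 CPM in KO at RT, 3.29 CPM in WT at TN and 5.92 CPM in KO at TN. Dio1, which encodes a deiodinase that activates thyroid hormone, was at 180 CPM, 94.6 CPM, 50.6 CPM and 51.9 CPM in the same groups. These correlations share libraries, scaling and the group means, and were picked as the highest of all tested genes.

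Outside liver the family was low, and its level varied widely between libraries of a group. In BAT the summed level ran from 0.896 to 438 CPM over 16 libraries, with group means of 51.0 CPM in WT at RT, 154 CPM in KO at RT, 188 CPM in WT at TN and 157 CPM in KO at TN. In eWAT it was 76.3, 1621, 7.69 and 4509 CPM in WT at RT (libraries 12, 13, 15 and 18) and 51.3, 660.2, 3665 and 924 CPM in KO at RT (libraries 9, 10, 16 and 19). At TN it was 145, 2.72, 175 and 132 CPM in WT and 33.9, 115, 4.68 and 51.0 CPM in KO. The highest eWAT library of each RT group was therefore many times the lowest, and RT and TN groups overlapped in both genotypes. Group means in eWAT were 1553.5 CPM in WT at RT, 1325.2 CPM in KO at RT, 114 CPM in WT at TN and 51.2 CPM in KO at TN.

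Across the 48 libraries, edgeR called 33 of 35 tested members lower in BAT than in liver (31.6% of all genes called lower) and 33 lower in eWAT than in liver (35.5%). Mup17 was lower by a log2 change of -8.93 in BAT (SE 1.03, adjusted p 7.91e-10) and -7.27 in eWAT (SE 0.96, adjusted p 1.63e-08). Mup3 differed by -7.77 in BAT and -7.22 in eWAT. Within BAT, 0 of 15 tested members were called by edgeR or DESeq2 in any of 5 comparisons. Of all BAT genes, 32.5% were called for housing in WT, 15.2% for housing in KO, 0.0887% between genotypes at RT, and 0.0% between genotypes at TN and for the interaction. At an unadjusted p under 0.05, 1 member was higher in KO at RT (10.2% of all genes higher) and 1 had a negative interaction (5.45%). Within eWAT, edgeR called 0 of 19 members. Of all eWAT genes, 4.34% were called between genotypes at RT, 0.586% between genotypes at TN, 1.74% for housing in KO, and 0.0% for housing in WT and for the interaction. Over the 5 comparisons 22 results had an unadjusted p under 0.05. All 22 were lower at TN, 9 in WT (3.03% of all genes lower) and 13 in KO (7.74%), and the lowest adjusted p values were 0.403 and 0.0830. For TN against RT in eWAT, DESeq2 called 4 members lower in WT (0.0951% of all genes) and 7 lower in KO (2.9%).

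Albumin, a transcript that marks hepatocytes, was also found in the fat libraries, at 3.05 to 1450 CPM in BAT and 22.3 to 2884 CPM in eWAT. The mean Mup-to-albumin ratio in eWAT was 1.83 ± 1.98 in WT at RT, 0.920 in KO at RT, 0.322 in WT at TN and 0.243 in KO at TN, which is the same order as in liver (1.45, 0.877, 0.310 and 0.452) except that WT and KO at TN change places. In BAT it was 0.757, 0.672, 0.585 and 0.410. In KO eWAT the ratio did not overlap between RT (0.686 to 1.27) and TN (0.101 to 0.362), whereas in WT eWAT it overlapped. The part of liver RNA in the levels seen in fat was not tested. The eWAT library with the highest Mup sum, WT RT library 18, had a ratio of 4.68 and the liver library of the same genotype, housing and number had the highest liver ratio, 2.67, but the labels do not say that a number marks the same mouse. The same eWAT library had epididymis markers summing to 930.2 CPM, against 0 to 13.7 CPM in the other eWAT libraries, and their part in its Mup level was not tested. By number, the ratio kept the same order in eWAT and liver in WT at RT (libraries 12, 15 and 18). The same held in WT at TN (6 and 7) and KO at TN (4 and 5). KO at RT differed, with libraries 9, 10, 16 and 19 at 0.694, 1.03, 1.27 and 0.686 in eWAT. In liver these numbers were at 0.985, 0.684, 0.769 and 1.07.

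**Figure D5:**
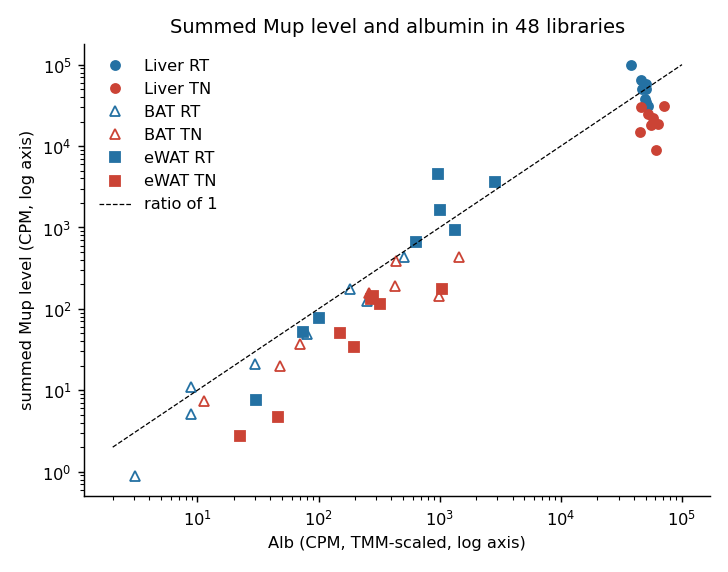
Summed Mup level against albumin (Alb), both in CPM (TMM-scaled, log axes), 1 point per library for 48 libraries, with a dashed line at a ratio of 1. Liver points lie at the upper right, and fat points spread along the line from 0.896 to 4509 CPM of Mup, with TN libraries in eWAT lying below the line.

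A single member was higher in eWAT than in liver. Mup-ps21 (ENSMUSG00000083524, chr4:62029342-62031662, minus strand), an unprocessed pseudogene with 100% unique windows, had 16 counts in 2 of the 16 liver libraries and 0 counts in all 16 BAT libraries. In eWAT it was at 0.489, 2.50, 1.20 and 5.43 CPM in WT at RT and 0.813, 0, 0.335 and 0.547 CPM in KO at RT. At TN it was at 4.06, 1.498, 1.01 and 4.48 CPM in WT and 3.95, 4.18, 0 and 0.634 CPM in KO. It had counts in 14 of 16 eWAT libraries, with no clear split by genotype or housing. The log2 change against liver was 6.30 (SE 0.96, adjusted p 2.11e-06, edgeR), where 38.3% of all genes were called higher. Against BAT it was the single member called higher (31.1% of all genes), and no fold is given because BAT was at 0.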

How the data were processed

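Raw counts per Ensembl identifier were deposited by the authors for each of 48 libraries. Per the submitters' processing notes, fastp, STAR 2.6.1d, featureCounts 1.5.0-p3 and the builds GRCm38 and mm10 were used; the annotation release, strand and multi-mapping settings are not given in the sources used here. Symbols, positions and exon windows were taken from GENCODE M21 (GRCm38), which named 52073 of 56748 identifiers, and promoters from RefSeq (GRCm38.p6). Per the labels' protocols, RNA was extracted with Maxwell RSC simplyRNA kits and libraries were made with NEBNext Ultra.

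Each tissue was fitted over its 16 libraries, and tissues over all 48, in edgeR 4.0.16 (R 4.3.3) with TMM scaling, filterByExpr (minimum count 10), a mean for each group and the robust quasi-likelihood F test. Benjamini-Hochberg adjustment of p-values covered every gene tested, 17594 in liver, 18032 in BAT, 18933 in eWAT and 21910 over tissues, and a member was called under 0.05. No p is given for sums, which are descriptions. The fits were tested on simulated data. Alternatives were RLE scaling, plain totals, scaling without Mup counts, other filters, DESeq2 1.42.0, only the 8 libraries compared, the replicate number as a block, and leaving out each library.

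Members of at least 1 CPM in liver are described by group, and called members and the 6 of highest mean CPM in every library; beyond them, 5 genes per likeness (Pearson r of log2(CPM + 0.1)) and list genes are named. Mup8, Mup21 and Mup-ps21 were given by library after their values were seen. The members and lists were chosen with earlier results of these data known. A result for a gene of the list of transcription factors and receptors is not reported here.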

Additional observations from a re-analysis of the deposited data

Results flagged for a closer look

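In liver of WT at RT, Mup-ps13 was at 19.3 CPM in library 15, set apart from the other 3 libraries, of which the nearest was at 25.8 CPM. The gap was 0.968 of the group's range, above Dixon's 95% critical value for 4 samples. Of 44 groups of libraries examined in this way (the named members in each liver group and the summed level in each tissue), 1 passed, and chance passes about 1 in 20.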

How the results depend on the processing

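Counts of called members were read against each alternative. DESeq2 moved the liver counts most, to 1 for KO against WT at RT, 4 at TN, 14 for housing in WT and 5 for housing in KO, and gave 7 in eWAT and 6 for eWAT against BAT. A fit of only the 8 libraries compared gave 1 for housing in WT and 4 in KO. For eWAT against BAT, plain library totals gave 2. Leaving out 1 library gave 0 to 0 at RT, 1 to 3 at TN, 1 to 4 for housing in WT, 0 to 1 in KO, 32 to 33 for BAT against liver, 33 to 34 for eWAT against liver and 1 to 2 for eWAT against BAT. The cause of these shifts was not tested. Scaling without the Mup counts called 3 for housing in WT. The summed level kept its direction under every scaling and every left-out library, with log2 changes of -2.18 to -1.49 for housing in WT and -0.97 to -0.74 in KO.

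Mup20 for housing in KO changed sign with plain totals (0.015), and ran from -0.23 without KO TN library 4 to 0.14 without KO RT library 16, turning positive also without KO TN library 2 (0.02) or 22 (0.08). With the replicate number as a block (replicate block), the tissue comparisons called 35, 35 and 3 members, the last for eWAT against BAT. The labels do not say that a number marks a mouse, although each number occurs in a single genotype and housing group. Deviations of same-numbered libraries correlated at -0.04 to 0.09 for liver and BAT and -0.09 to 0.11 for liver and eWAT. For BAT and eWAT the range was -0.38 to 0.17. Correlations between different tissues cannot tell whether a number marks a single mouse. Same-numbered libraries were not paired in the main fit, which ignores any such pairing. Depth limits Mup9 in WT at TN, where libraries held 80, 18, 19 and 56 counts.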

Other observations

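Mup proteins belong to the lipocalins. Of 16 other lipocalin genes listed, 10 were tested in liver, and for housing in WT edgeR called 0. At an unadjusted p under 0.05, 3 were lower (3.31% of all genes), and DESeq2 called 1 lower (0.239% of all genes). Obp2a, an odorant-binding lipocalin gene, was at 7.74 ± 2.64 CPM in WT at RT and 0.689 ± 0.262 CPM in WT at TN (SD, n = 4; log2 change -3.49, adjusted p 0.146). Apom, which carries sphingosine-1-phosphate on lipoproteins, was called between genotypes at RT, with WT libraries at 86.7 ± 12.0 CPM and KO libraries at 166 ± 24.9 CPM (edgeR log2 change 0.94, SE 0.18, adjusted p 0.0445). In KO against WT at TN, 4 of the 10 were higher at an unadjusted p under 0.05 (8.68% of all genes). Of the 10, edgeR called 0 and DESeq2 called 3 higher (3.06% of all genes).

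Igfbp3, a growth hormone target that binds insulin-like growth factors, was higher in KO at TN than in KO at RT by a log2 change of 1.05 with an adjusted p of 0.0914.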
